A study of Mus musculus with 2 samples.

Results

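Klf2, its relatives Klf3 and Klf6, the egress receptor S1pr1, the T cell factors Tcf7, Lef1 and Satb1, and the surface markers Cd69 and Cd44 were examined in regulatory T cells (Treg) of 2 Stat3 genotypes. A gene was included by its symbol, through every probe set that the platform annotation pairs with that symbol alone. The rule named 9 genes, of which 8 had such a probe set, out of 18193 genes that had one on the array. Tcf7 had none in the annotation used here and is not analysed here. The 8 genes were read by 26 probe sets.

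The data were 1 array of Treg labelled Foxp3<Cre/wtS> Stat3<fl/fl> and 1 array of Treg labelled Foxp3<Cre/wtS> Stat3<fl/wt>, called fl/fl and fl/wt here. The donors were females, 6 to 8 weeks old, and the Treg came from their spleens and lymph nodes by fluorescence-activated sorting. Both genotypes carried a Cre recombinase at Foxp3, the gene of the factor that defines Treg, so that Cre acts where Foxp3 is expressed. The fl/fl mice had both Stat3 alleles flanked by loxP sites and the fl/wt mice had a single such allele, so Stat3 is a target of Cre in both groups. The text on the series' design writes the Foxp3 genotype of the fl/fl mice as Cre/wt. Foxp3 lies on the X chromosome and is subject to X inactivation, so Treg of females with a single Cre allele are a mixture unless Cre-bearing cells are selected. The labels do not say whether they were, or how many mice were pooled.

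Klf2 is a zinc finger transcription factor that keeps naive T cells quiescent. It is required for expression of S1pr1, the receptor through which lymphocytes follow sphingosine 1-phosphate (S1P) out of lymphoid tissue, and it supports lymph node homing, in which the chemokine receptor Ccr7 takes part. The transcription factor Foxo1 and the kinase Erk5, encoded by Mapk7 and acting through Mef2 factors, maintain Klf2, and antigen receptor signalling through Akt lowers it. Cd69 appears on the surface soon after activation and binds S1pr1, which retains the cell in the tissue. Cd44 is a hyaluronan receptor that is high on effector and memory T cells. In Treg, high Klf2, Tcf7 and Lef1 are typical of the resting, recirculating state, and high Cd44 and low Klf2 of the effector state.

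The sequences just before the start sites of Klf2 and Klf3 are shown because they hold the letters of sites that transcription factors of this circuit bind. They are the 250 bases before the start site, cut from RefSeq windows that run on past it, on the plus strand of GRCm38.p6, 5′ to 3′, with Klf2 at chr8:72318812-72319061 and Klf3 at chr5:64803271-64803520. In the Klf2 line the capitals mark the only match among the members to CTA and TAG 4 bases apart, the core letters of a Mef2 site, which begins 118 bases before the start site. In the Klf3 line they mark the matches to CCACCC, a box that Klf proteins bind, on either strand.
Klf2: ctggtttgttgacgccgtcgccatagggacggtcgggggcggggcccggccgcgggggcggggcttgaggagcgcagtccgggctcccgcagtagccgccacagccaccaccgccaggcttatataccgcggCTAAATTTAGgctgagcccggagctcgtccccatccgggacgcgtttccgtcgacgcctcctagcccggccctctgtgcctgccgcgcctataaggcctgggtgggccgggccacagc
Klf3: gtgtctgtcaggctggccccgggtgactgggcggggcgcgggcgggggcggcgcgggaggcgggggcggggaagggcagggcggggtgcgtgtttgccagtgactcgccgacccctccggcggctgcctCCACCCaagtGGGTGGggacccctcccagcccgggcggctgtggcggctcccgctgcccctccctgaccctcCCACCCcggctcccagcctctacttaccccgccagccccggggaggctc
All counts of matches below refer to these 250 bases. The RefSeq table held 15 such windows for 7 of the 9 genes, Tcf7 included, and none for S1pr1 or Cd69. Lef1 and Satb1 contributed several windows each, some of which overlap. These Mef2 letters were found in 1 of the 15 windows and in 3.2% of all 32851 windows. CCACCC was found on either strand in 9 windows, from 5 genes, and in 28.1% of all windows. The Stat letters TTCNNNGAA were found in 0 of the 15 windows and in 7.02% of all windows. The Foxo letters GTAAACA were found on either strand in 0 of the 15 windows and in 3.17% of all windows. These matches describe the letters in the windows and were not tested as sites.

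Values are the deposited log2 expression of each probe set, and differences are fl/fl minus fl/wt on the log2 scale. A probe set was taken as measured at log2 5 or more in at least 1 array, and a value under 5 was set to 5. Each genotype has 1 array and therefore no measured error, so no test was possible and none of the differences was checked by a replicate. Of the 26 member probe sets, 22 were measured in both arrays, 1 in fl/fl only and 3 in neither. Levels of different probe sets are not comparable with each other, since each has its own response. In sorted bulk cells, fewer cells of a type and less RNA per cell cannot be told apart.

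**Figure D1:**
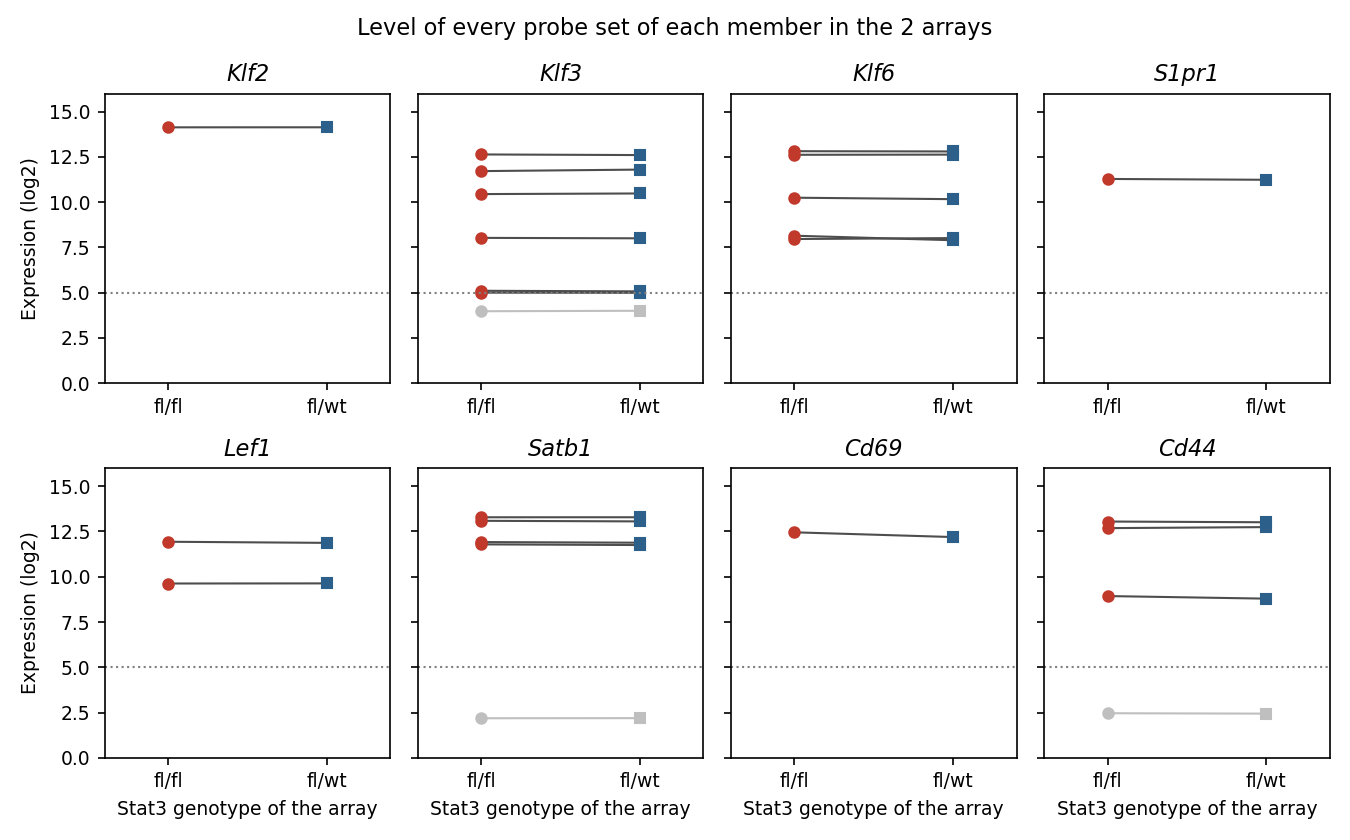
Log2 expression of every member probe set in the fl/fl array (circles) and the fl/wt array (squares), joined by a line for each probe set, with 1 panel per gene. The dotted line is log2 5 and grey marks the 3 probe sets under it in both arrays. The lines are close to level in all 8 panels, with the clearest tilt for Cd69, which read 12.45 in fl/fl and 12.19 in fl/wt.

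Most member probe sets were nearly equal in the 2 arrays, and by the brightest probe set of each gene Cd69 stood apart from the other members. None of the 23 measured member probe sets differed by 1.5-fold, against 0.781% of all 19718 measured probe sets. A size of 0.1 or more was reached by 3 of the 23, against 31.8% of all measured probe sets. A size of 0.25 or more was reached by 2 of the 23, that of Cd69 and a dimmer one of Klf6, against 8.01% of all. These shares cover all levels, and differences spread more among dim probe sets. Of the 9 member probe sets with a mean at log2 12 or more, 1 reached 0.1, against 4.62% of all probe sets in that range. The median difference of the member probe sets was 0.033, against -0.0017 over all measured probe sets, and the median size was 0.035, against 0.059 over all. Of the 23, 15 were higher and 8 lower in fl/fl, where 49.2% of all measured probe sets were higher.

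Klf2 lay far above log2 5 and was nearly equal in both arrays. Its single probe set read 14.13 in fl/fl and 14.13 in fl/wt, a difference of -0.0025, or 0.998-fold.

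Klf3, a repressor of the same family whose own gene is a target of Klf factors, was read by 7 probe sets with no shared direction. The brightest read 12.63 in fl/fl and 12.60 in fl/wt, a difference of 0.034. The second read 11.71 in fl/fl and 11.80 in fl/wt, a difference of -0.083, the most negative of any member. The third read 10.45 in fl/fl and 10.48 in fl/wt, a difference of -0.035. The brightest and the next pair of Klf3 probe sets thus pointed opposite ways. The next in brightness read 8.03 in fl/fl and 8.003 in fl/wt. A further pair lay at the edge of measurement, the first at 5.11 in fl/fl and 5.07 in fl/wt. The other read 5.003 in fl/fl and 4.993 in fl/wt. The last was under log2 5 in both, at 3.977 in fl/fl and 4.002 in fl/wt. Over the 6 measured probe sets the mean difference was -0.0038 with an SD of 0.047 between probe sets.

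Klf6, a member of the family that is induced early on activation and by cell handling, was read by 5 measured probe sets, 3 higher and 2 lower in fl/fl. The brightest read 12.81 in fl/fl and 12.80 in fl/wt, and the next read 12.62 in fl/fl and 12.63 in fl/wt. The third read 10.25 in fl/fl and 10.16 in fl/wt, a difference of 0.081. The bright probe sets of Klf6 were equal to within 0.015. A dimmer probe set read 8.15 in fl/fl and 7.90 in fl/wt, a difference of 0.25. That probe set was designed from the same sequence record as the brightest Klf6 probe set, whose difference was 0.015. Both of these, and the third, carry a suffix that marks probes shared between transcripts or with other sequences, and without such probe sets Klf6 differed by -0.0098. The last Klf6 probe set, at a like level, went the other way, with 7.96 in fl/fl and 8.02 in fl/wt. The mean over the 5 was 0.057 with an SD of 0.12 between probe sets.

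S1pr1, the egress receptor and the target by which Klf2 is best known, was close to equal. Its single probe set read 11.28 in fl/fl and 11.24 in fl/wt, a difference of 0.046, or 1.03-fold.

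Lef1, which binds DNA with beta-catenin and shares targets with Tcf7, was read by 2 probe sets that differed in direction. The brighter read 11.93 in fl/fl and 11.87 in fl/wt, a difference of 0.061. The other read 9.63 in fl/fl and 9.63 in fl/wt, a difference of -0.0063. The gap between these probe sets, 0.067, was wider than either difference.

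Satb1, a chromatin organiser needed for Treg development in the thymus and lowered in mature Treg by Foxp3, was read by 4 measured probe sets. The brightest read 13.28 in fl/fl and 13.28 in fl/wt, a difference of -0.00089. The others were higher in fl/fl by 0.033, 0.035 and 0.037. The second of them read 11.91 in fl/fl and 11.88 in fl/wt. The mean over the 4 was 0.026 with an SD of 0.018 between probe sets, the narrowest spread of the 5 members with several measured probe sets. A further Satb1 probe set was under log2 5, at 2.19 in both arrays.

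Cd69 had the largest difference of the 8 genes. Its single probe set read 12.45 in fl/fl and 12.19 in fl/wt, a difference of 0.26, or 1.20-fold. Differences of that size were rare among the bright probe sets of these arrays. Cd69, at a mean of 12.32, lay near the lower end of the bright range. The spread narrows as the level rises, so the shares over that range need not hold at the level of Cd69. Of the 3096 probe sets with a mean at log2 12 or more, 0.194% (6) differed by 0.25 or more, and 4.62% by 0.1 or more. Of the 9 member probe sets in that range, Cd69 was the only one to reach either size. The other 5 of those 6 probe sets, chosen after their values were seen, read Hspe1 (0.29), Ankrd11 (-0.28), Tmem51 (-0.30), Eif4ebp2 (-0.31) and Serf2 (-0.32). The level above which probe sets were counted, log2 12, was set with the Cd69 value known, and the size of 0.25 lies just under its difference. No second probe set reads Cd69, so its difference has no check within the arrays.

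Cd44 was read by 3 measured probe sets that did not share a direction. The brightest read 13.05 in fl/fl and 13.01 in fl/wt, a difference of 0.041. The second read 12.68 in fl/fl and 12.74 in fl/wt, a difference of -0.057. The third read 8.93 in fl/fl and 8.79 in fl/wt, a difference of 0.14, and carries a shared-probe suffix. The bright pair of Cd44 probe sets, both above log2 12, therefore bracketed zero. A last probe set was under log2 5, at 2.46 in fl/fl and 2.44 in fl/wt.

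**Figure D2:**
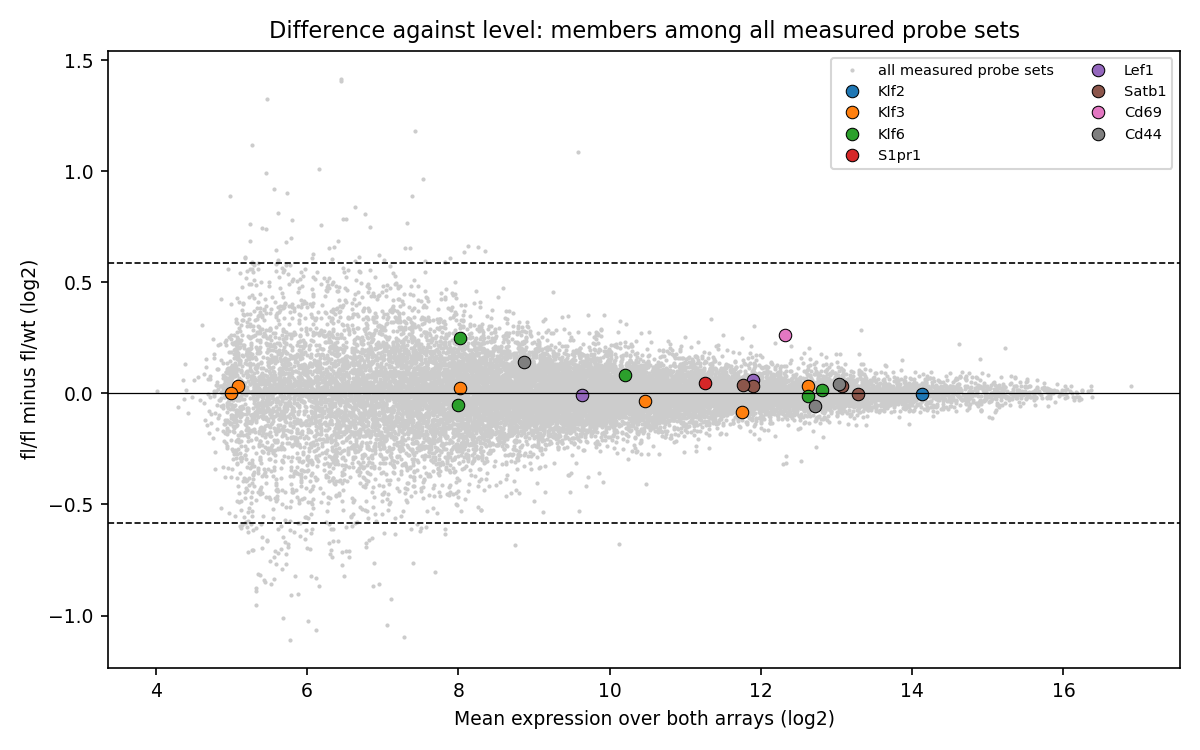
Difference (fl/fl minus fl/wt, log2) of each measured probe set against its mean log2 expression over both arrays, with all 19718 measured probe sets in grey and the 23 member probe sets coloured by gene. Dashed lines mark 1.5-fold in either direction. The grey cloud narrows as the level rises, and Cd69, at a difference of 0.26, lies at its upper edge while the other bright members lie inside it.

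All 5 members with several measured probe sets had probe sets in both directions. Over 4227 genes with at least 2 probe sets measured in both arrays, the SD of the differences between probe sets of 1 gene was 0.14. Among bright probe sets, at a mean of log2 12 or more, it was 0.046 over 454 genes. These are spreads between probe sets on the same pair of arrays and contain none of the variation between mice or samples. Of the member probe sets in that range, those of Cd69 (0.26) and the second of Cd44 (-0.057) differed by more than this spread, and the other 7 by less.

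Each gene was next taken by its brightest probe set and set among the genes of its pathway. By that measure fl/fl was the higher array for 6 of the 8 members and the lower for 2, where 47.5% of all 9773 measured genes were higher. The member median was 0.038, against -0.0045 over all measured genes. None of the 8 passed 1.5-fold, against 0.645% of all measured genes, and 1 (Cd69) reached 0.1, against 26.8%. Both shares cover genes of all levels.

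Klf2's relatives differed by -0.080 to 0.15 by their brightest probe sets. Of the 17 Klf genes, 10 were measured, Klf2, Klf3 and Klf6 included. Of these, 6 were higher and 4 lower in fl/fl, where 47.5% of all measured genes were higher. The median of the 10 Klf genes was 0.011. It was -0.021 with each array centred on its median over all probe sets, which lies under log2 5. Klf16 read 8.19 in fl/fl and 8.04 in fl/wt, a difference of 0.15. By the brightest probe set it was the only one to reach 0.1, against 26.8% of all measured genes. Klf7 followed with 0.092, and Klf9 (-0.080) and Klf13 (-0.050) were on the other side. Other measured probe sets went further, to -0.17 for Klf13, -0.12 for Klf9 and 0.25 for Klf6. Klf4, a factor that like Klf2 restrains T cell proliferation, differed by 0.0066, Klf11 by 0.015 and Klf10, which is induced by TGF-beta, by -0.019. Probe sets of Klf4, Klf7 and Klf9 differed in direction. The erythroid factor Klf1 was among the 6 under log2 5 in both arrays, with Klf5, Klf12, Klf14, Klf15 and Klf17.

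Molecules of lymph node entry and tissue retention were mixed. With S1pr1 and Cd69 included, 6 measured genes were higher in fl/fl and 9 were lower, where 47.5% of all measured genes were higher. The median of this list was -0.0096. The lymph node homing receptor Ccr7 read 11.67 in fl/fl and 11.70 in fl/wt, a difference of -0.029. Itgb7, an integrin chain of gut homing whose expression in T cells depends on Klf2 in mice, differed by -0.0083. The chemokine receptor Cxcr4 read 10.44 in fl/fl and 10.28 in fl/wt, a difference of 0.16. Itga4, the partner chain of Itgb7, differed by -0.12, and its 4 measured probe sets ran from -0.17 to 0.12.

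In the S1P pathway, the receptors S1pr1 and S1pr4 were near zero, S1pr2 was mixed between probe sets, and a dim receptor was lower in fl/fl. S1pr4, a further S1P receptor of lymphocytes, read 12.84 in fl/fl and 12.78 in fl/wt, a difference of 0.064. S1pr3, a receptor best known from endothelium and muscle, read 5.13 in fl/fl and 5.80 in fl/wt, a difference of -0.66. It was the only 1 of 12 measured pathway genes past 1.5-fold, and it lay just above log2 5, with a single measured probe set, which carries a suffix for shared probes. With 32 added on the linear scale its difference was -0.38. It was not measured with a floor of log2 6, as the median over its probe sets or without probe sets of shared suffix. The enzymes that make or remove S1P were mixed, with the lyase Sgpl1 at 0.14, the phosphatase Plpp1 at -0.20 and the kinase Sphk2 at -0.18. The pathway as a whole, S1pr1 included, split into 5 genes higher and 7 lower in fl/fl, where 47.5% of all measured genes were higher. The pathway median was -0.040. S1pr2, which opposes migration, had 1 probe set at -0.15 and another at 0.20.

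Regulators that act on Klf2 differed by -0.20 to 0.066 by their brightest probe sets. Among 14 measured genes there were 3 with a higher and 11 with a lower value, where 47.5% of all measured genes were higher, and the median was -0.056. By the brightest probe set none passed 1.5-fold, and 3 reached a size of 0.1, against 26.8% of all measured genes. Other probe sets of some of these genes went further. The 4 measured probe sets of Pik3cd ran from -0.59 to 0.31, the lowest of them past 1.5-fold. Those of Map3k2 ran from -0.38 to -0.011 and those of Mef2d from -0.36 to 0.051. In 8 of the 14, Foxo1 among them, measured probe sets of the gene differed in direction. Foxo1 read 12.685 in fl/fl and 12.67 in fl/wt, a difference of 0.017. Mapk7 differed by 0.058 and Map2k5, its activating kinase, by -0.0055. Mef2a, a factor that binds Mef2 sites, read 9.58 in fl/fl and 9.77 in fl/wt, a difference of -0.20, while its 4 measured probe sets ran from -0.20 to 0.054. Smurf1, a ubiquitin ligase that targets Klf2, differed by -0.14. Akt1 differed by -0.12 by its brightest probe set and by -0.0047 when its probe sets were summarised by their median. Akt2 differed by 0.066 by its brightest probe set and by -0.056 by the median.

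Genes of T cell quiescence, Klf2 and Klf3 included, were balanced between 9 higher and 10 lower in fl/fl. The median of these 19 was -0.0025, which is the value of Klf2 itself. Tob1, an inhibitor of T cell proliferation, differed by 0.13 and the cell cycle inhibitor Cdkn1b by -0.11. Tsc1, which restrains mTORC1, differed by -0.20 by its brightest probe set and by 0.34 by the other. The IL-7 receptor Il7r, which Foxo1 maintains in naive and memory T cells, read 12.75 in fl/fl and 12.77 in fl/wt. Its 2 probe sets differed by -0.023 and -0.14.

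Partners of Tcf and Lef factors, Lef1 included, split into 6 genes higher and 8 lower in fl/fl, around a median of -0.017. Bcl9l, a coactivator of beta-catenin, read 9.70 in fl/fl and 9.94 in fl/wt, a difference of -0.24, and Tcf7l2 differed by -0.17. Beta-catenin itself, Ctnnb1, differed by -0.070. Axin2, a transcript induced by Wnt signalling in many tissues, differed by -0.039. Bcl9 (0.082) and Apc (0.063) were on the higher side. Probe sets of Tcf7l2, Ctnnb1 and Bcl9 differed in direction.

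**Figure D3:**
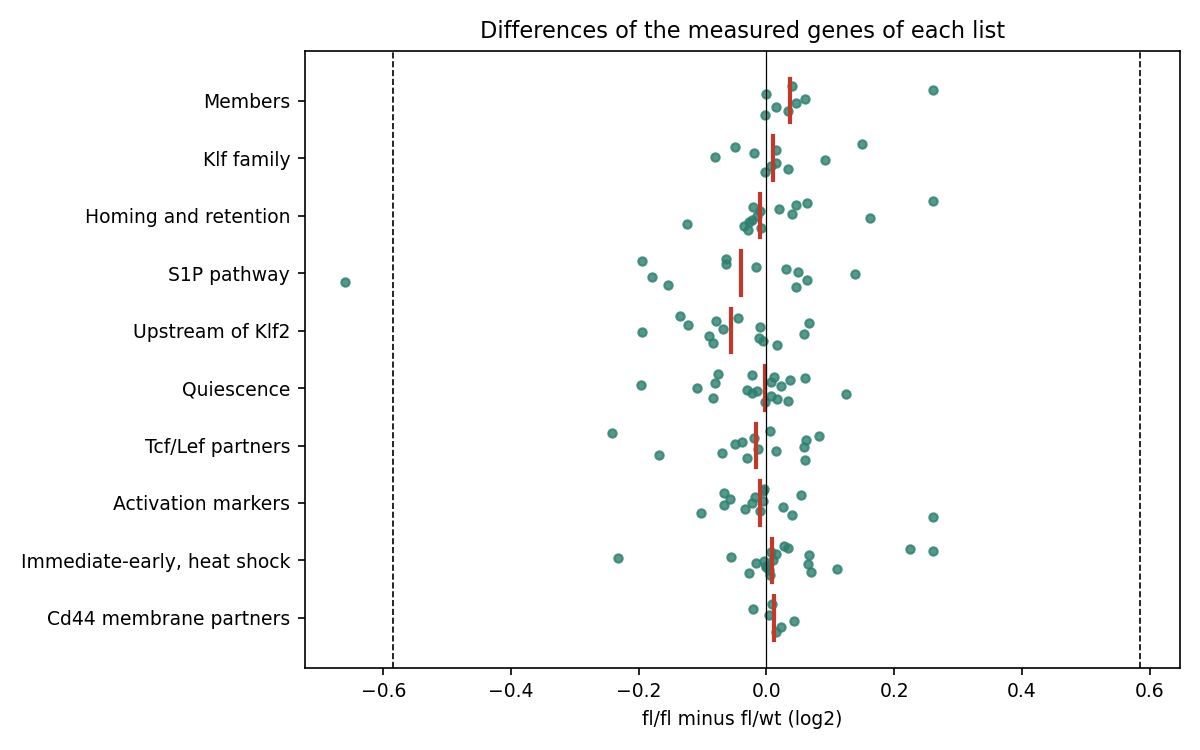
Difference (fl/fl minus fl/wt, log2) of each measured gene of the members and of 9 related lists, by its brightest probe set, with the list median as a vertical bar and 1.5-fold as dashed lines. S1pr3 at -0.66 is the only gene outside the dashed lines, and every list median lies between -0.056 and 0.038. Lists share genes, so Cd69 at 0.26 appears in 4 of them.

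Activation markers other than Cd69 differed by -0.10 to 0.055. The 15 measured markers, Cd69 and Cd44 included, comprised 4 that were higher and 11 that were lower, where 47.5% of all measured genes were higher. Their median was -0.010, and several of the lower values were close to zero. The IL-2 receptor chain Il2ra read 13.35 in fl/fl and 13.45 in fl/wt, a difference of -0.10. Tnfrsf4, a costimulatory receptor, differed by -0.067, Myc by -0.066 and the transcription factor Batf by 0.055. Icos, the costimulatory receptor of effector Treg, differed by -0.010.

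Cd69 and Klf6 also respond to tissue handling, as do immediate-early and heat shock genes. Of 20 such genes measured, both included, 13 were higher in fl/fl and 7 lower, where 47.5% of all measured genes were higher. The median of the 20 was 0.0081. Fos read 15.10 in fl/fl and 15.09 in fl/wt, and Nr4a1, an early gene of antigen receptor signalling, read 12.86 in both arrays. The heat shock gene Hspa1a differed by 0.22, Jund by 0.11 and Atf3 by -0.23. Their part in the Cd69 difference was not tested. Of the 6 measured membrane partners of Cd44, 5 were higher and 1 lower, against the same 47.5%, and the median was 0.012. None of the 6 differed by 0.1, against 26.8% of all measured genes. The cytoskeletal linkers Rdx, Msn and Ezr differed by 0.043, 0.023 and 0.015. Of the list medians given here, those of the members, the regulators of Klf2 and the activation markers kept their sign under all 9 alternatives, and the other 7 took the opposite sign under 1 or more.

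Marker genes were read to see which cells the arrays describe. Of 9 Treg markers, 7 were measured, with a median level of 13.35 in fl/fl and 13.45 in fl/wt. The brightest, Ctla4, read 14.87 in fl/fl and 14.91 in fl/wt, and the dimmest, Ikzf4, read 12.17 in fl/fl and 12.08 in fl/wt. Foxp3 itself lay below log2 5 by its single probe set, at 3.52 in fl/fl and 4.09 in fl/wt. Of 6 T cell markers, 5 were measured, with a median level of 14.15 in fl/fl and 14.15 in fl/wt. Stat3 was measured by 3 probe sets that differed by -0.083 to -0.0083. Their position along the gene with respect to the loxP sites is not stated in the labels, so they do not check the genotypes, and every direction here rests on the labels. Myeloid markers, from cells that also express Klf2, Klf4, Klf6 and Cd44, were bright for 7 of 8 genes, and only Itgam was under log2 5. Csf1r, the receptor of a macrophage growth factor, read 14.002 in fl/fl and 13.99 in fl/wt, and Cd14, the dimmest of the 7, read 10.51 in fl/fl and 10.56 in fl/wt. Their summed linear value was 60021 in fl/fl and 60234 in fl/wt, and their median difference was 0.0023. Of 8 B cell markers, 4 were measured, with a summed linear value of 1620 in fl/fl and 1707 in fl/wt, and Pax5, Fcer2a and Cr2 were under log2 5. The 4 differed by -0.34 (Ms4a1), -0.17 (Blk), -0.079 (Cd79b) and 0.16 (Cd79a), and probe sets of Ms4a1 differed in direction. Of 7 CD8 and NK markers, 4 were measured, with 2420 in fl/fl and 2410 in fl/wt, and Ncr1 and Klrk1 were under log2 5. Here Cd8b1 differed by 0.27, Eomes by 0.076, Cd8a by -0.028 and Nkg7, the brightest, by -0.062. Each sum is weighted to its brightest genes, so near-equal sums can hide differences of dimmer markers. The part of such cells in the members' values was not tested.

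**Figure D4:**
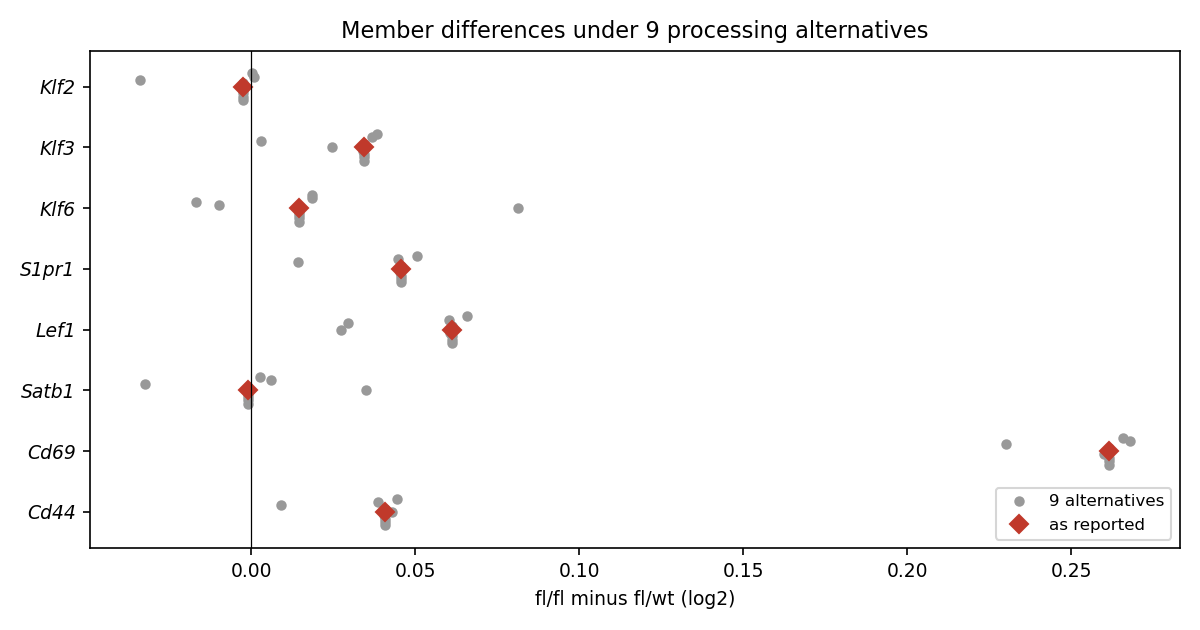
Difference (fl/fl minus fl/wt, log2) of each member gene as reported (diamonds) and under 9 alternative ways of processing (grey points). Cd69 stays between 0.23 and 0.27, Klf2, Klf6 and Satb1 fall on both sides of zero, and the other 4 members stay above zero.

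Over the 9 alternatives no member other than Cd69 passed 0.1. Klf2 ran from -0.034 to 0.00087, Klf6 from -0.017 to 0.081 and Satb1 from -0.032 to 0.035. Cd69 ran from 0.23 to 0.27, S1pr1 from 0.014 to 0.050, Lef1 from 0.027 to 0.066, Klf3 from 0.0029 to 0.038 and Cd44 from 0.0092 to 0.044. None of the 8 passed 1.5-fold under any of the 9.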

How the data were processed

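Per the labels' protocols, total RNA was converted to biotinylated cRNA; the series' design text names Affymetrix arrays. The deposited values are log2 expression of 45101 probe sets on 2 arrays, made by the authors with GCRMA, per the submitters' processing notes. Neither version nor settings are given there. This method removes a background modelled on probe base content, which compresses dim probe sets, and brings the arrays to a common distribution. Values before normalisation were not used here, and the number of arrays limits the precision.

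Leaving out 64 control probe sets, 34945 probe sets had 1 gene symbol in the platform annotation, 932 several and 9160 none. By Entrez identifier 34741 matched RefSeq (GRCm38.p6), with 0 changed symbols. A gene was represented by its brightest probe set. Of 171 listed genes, 139 were measured, 21 were under log2 5 and 11 had no probe set of a single symbol. The named genes were all members, selected partners fixed by name (Stat3, Ccr7, Itgb7, S1pr4, Foxo1, Il7r and the Klf family) and up to 3 genes from each end of the other lists; other genes were named after their values were seen. Members and lists were chosen with earlier results of these data known. Fold counting was run on simulated data with shifts far past 1.5-fold, which checks the counting code only. Python 3.11.15, numpy 2.4.6, pandas 2.3.3 and statsmodels 0.14.6 were used.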

Additional observations from a re-analysis of the deposited data

How the results depend on the processing

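The alternatives were floors of log2 4 and 6, no filter or floor, 32 added on the linear scale, the median over a gene's probe sets, probe sets without shared suffixes, median centring, quantile normalisation and loess. All were planned. Over 72 member values none moved by as much as 0.14, the SD between probe sets of 1 gene. Klf2, Klf6 and Satb1 changed sign under at least 1 alternative and the other 5 measured members under none. The number of members higher in fl/fl ran from 5 to 8, and 0 members passed 1.5-fold or 2-fold. Of 15 list medians, 11 took the opposite sign with 1 or more of the settings, and none moved by 0.14 over 132 values. Of 57 other named genes, 7 had a value that moved by 0.14 or more, S1pr3 with 32 added and the rest as the median over probe sets, which took the opposite sign for Klf7 (-0.044), Klf9 (0.096), S1pr2 (0.021), Mef2a (0.045), Tsc1 (0.34) and Runx1 (-0.22). The count of all genes past 1.5-fold (24 higher and 39 lower) was 44 and 58 when the floor was 4, 16 and 14 when it was 6, 76 and 95 with no filter or floor, and 13 and 10 with 32 added. A 2-fold threshold gave 3 and 2 by construction. Centring moved the median of all genes by -0.031 and the other scalings by at most 0.0036. The medians used for centring, 3.504 in fl/fl and 3.473 in fl/wt, are over all probe sets and lie under log2 5. No paired analysis was possible because each genotype has 1 array.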
